A study of Mus musculus with 9 samples.

Results

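The 10 tubulin genes Tuba1a, Tuba1b, Tuba1c, Tuba4a, Tuba8, Tubb2a, Tubb2b, Tubb3, Tubb4a and Tubb5 were followed through the RNA-seq libraries of 9 mouse embryos. Their rows were found by Ensembl identifier among the 44886 genes of the count tables, with symbols from GENCODE M21. All 10 had reads, and 9 of them passed the filter on low counts that left 16368 genes for testing. Tuba8 did not pass. The pattern of Tuba1c was chosen by its measured counts, which follow the prefix of the embryo code, IE or D, in the sample labels. Its values by code are therefore a description and carry no test.

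Striatum was dissected at E17.5, shortly before birth, from embryos of C57BL/6 mice, as the labels name the strain. Each library carried 1 embryo code, and poly(A) RNA was sequenced as 75-base reads. The embryos were 3 controls, 3 with the labelled genotype Islet1Cre;Ebf1fl/- and 3 with the labelled genotype Dlx5/6::Cre;Ebf1fl/-, and the comparison asks what loss of the transcription factor Ebf1 changes in developing striatal projection neurons (SPN). In the mutants, 1 Ebf1 allele is null and the other is floxed. By the study's methods the controls were heterozygous embryos, and neither these methods nor the labels give the alleles of each one. Islet1Cre recombines in SPN of the direct pathway and in cholinergic interneurons, whereas Dlx5/6::Cre recombines in SPN of both pathways and in interneurons. The methods also state that the Islet1Cre line stayed on a B6D2F1/J background while the other lines used for these crosses were on C57/Bl6. The code prefix was IE in controls 1 and 2 and in all 3 Islet1Cre;Ebf1fl/- embryos, and D in control 3 and in all 3 Dlx5/6::Cre;Ebf1fl/- embryos. What the prefix stands for is not given in the sources used here. Code and mutant genotype cannot be told apart between the mutants, and only the controls hold both codes.

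Microtubules are built from dimers of alpha- and beta-tubulin, each encoded by several genes. Neurons use them to shape axons and dendrites, to carry cargo and to migrate, and mutations of several of these genes disturb brain development in humans and mice. The proteins of a family differ little along most of their length and differ most in their C-terminal tails, which face outward from the microtubule and carry many of its modifications.

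Counts of Ebf1, the targeted gene, did not separate the mutants from the controls. As CPM, that is counts per 1000000 of the library total scaled by trimmed mean of M-values (TMM), they were 264.3, 470.4 and 321.5 in controls 1 to 3, 506.7, 458.7 and 439.2 in the Islet1Cre;Ebf1fl/- embryos and 391.5, 433.9 and 506.2 in the Dlx5/6::Cre;Ebf1fl/- embryos. The tables hold 1 count per gene over all exons, and the exons removed by recombination are not given in the sources used here, so these counts do not check the labels. For protein, the study reported by immunostaining at E17.5 that Ebf1 was missing from the striatum of both mutants. The libraries held 16548083 to 41507049 counts on genes. All 10 markers of SPN were counted, with a summed level of 3254 to 4046 CPM. The summed level of 8 markers of dividing progenitors was 538.2 CPM in Dlx5/6::Cre;Ebf1fl/- embryo 1 and 89.5 to 147.7 CPM in the other embryos. That of 8 markers of cortical excitatory neurons was also highest in this embryo, at 218.1 CPM, and lay between 37.7 and 104.7 CPM in the others. Markers of radial glia and astrocytes summed to 1013.3 and 796.5 CPM in Dlx5/6::Cre;Ebf1fl/- embryos 1 and 2 and to 522.1 to 693.2 CPM in the others. Microglial markers summed to 91.9 to 101.5 CPM in Dlx5/6::Cre;Ebf1fl/-, 74.9 to 95.3 in Islet1Cre;Ebf1fl/- and 80.3 to 87.3 in control embryos. The part of cell content in the comparisons was not tested. Control 3 and Islet1Cre;Ebf1fl/- embryo 3 carried both Xist, at 400.4 and 241.7 CPM, and the Y-linked Ddx3y, at 1.98 and 19.4 CPM. Whether either library holds RNA of more than 1 embryo was not tested. Control 2 had Ddx3y at 30.4 CPM and Xist at 0.108 CPM. The remaining libraries, among them all Dlx5/6::Cre;Ebf1fl/- embryos, had Xist at 354.0 to 870.6 CPM and Ddx3y at 0 to 0.0469 CPM. By these reads sex was not balanced between genotypes, and its part in the comparisons was not tested. In bulk tissue, fewer cells of a type and less RNA per cell cannot be told apart.

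The Tuba1 genes are close copies, and the study removed reads that matched the genome more than once before counting. Tuba1a lies at chr15:98949837-98953703 and Tuba1b at chr15:98931425-98934565, both on the minus strand, and Tuba1c at chr15:99029891-99038110 on the plus strand (GRCm38). Over the 1347 coding positions that could be compared, 42 were not shared by all 3 genes.

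The other members lie on other chromosomes. Tuba4a is at chr1:75214228-75219865, Tuba8 at chr6:121210696-121226854 and Tubb3 at chr8:123411424-123422015. Tubb2a is at chr13:34074274-34078007 beside Tubb2b at chr13:34126748-34130466, and Tubb5 at chr17:35833921-35838306 is far from Tubb4a at chr17:57080066-57087782.

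The transcripts of each gene were divided into all windows of 75 bases, and a window was called shared when the same bases occur in a transcript of another gene of GENCODE M21. Of Tuba1a, 70.5% of windows were shared (87.3% of the coding ones), of Tuba1b 70.0% (93.8%) and of Tuba1c 48.9% (84.9%). The coding sequences of Tuba1a and Tuba1b were 98.3% identical. Tuba1c shared 892 windows with Tuba1b and 690 with Tuba1a, which left it 1131 windows found in no other gene. Among the beta-tubulins, Tubb2a and Tubb2b had 43.2% and 30.2% of windows shared, mostly with each other, and their coding sequences were 96.5% identical. Tubb3, Tubb4a and Tubb5 shared none. All shared windows of Tuba4a were shared with the overlapping gene Stk16, and none of these was coding. Counts of the Tuba1 genes and of Tubb2a and Tubb2b thus come from a part of each transcript, and their levels per length are uncertain.

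**Figure D1:**
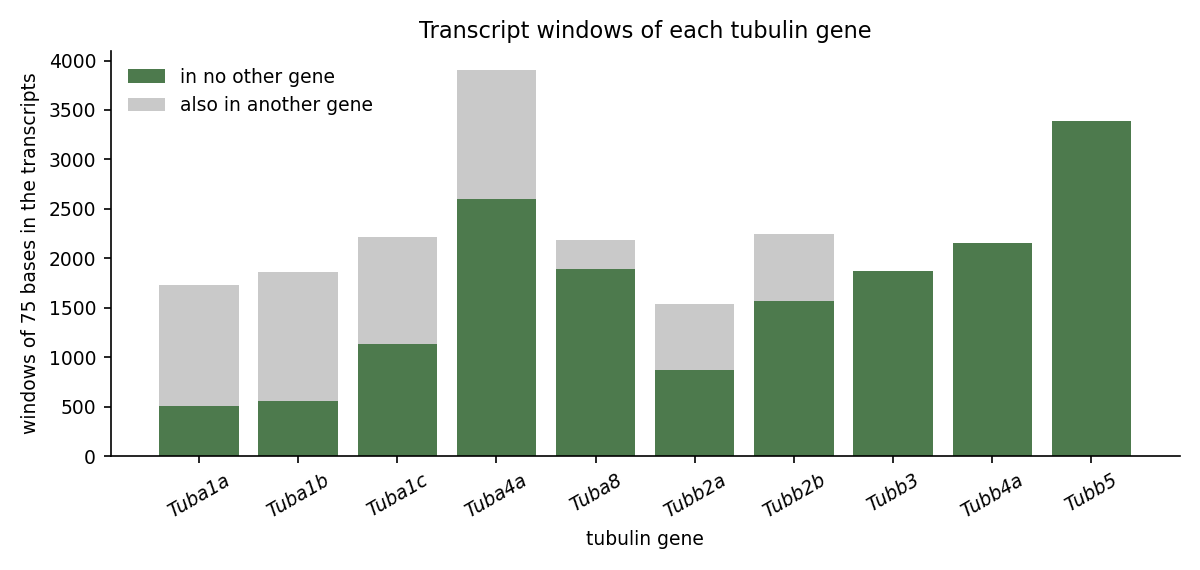
Number of 75-base windows (vertical axis) in the transcripts of each tubulin gene (horizontal axis), divided into windows found in no other gene (green) and windows also found in another gene (grey). Tuba1a and Tuba1b have the largest grey share, 70.5% and 70.0%, and Tubb3, Tubb4a and Tubb5 have none.

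The 10 genes stood at very different levels, with Tuba1a at the top and Tuba8 at the bottom. On the scale of CPM per kilobase of exon, which allows levels of different genes to be compared, Tuba1a was highest, with a mean of 2696 ± 247.0 (SD, n = 9). Tubb2b followed with 1592, then Tubb3 with 1265, Tubb5 with 1252, Tubb2a with 467.8 and Tubb4a with 88.9. At the lower end stood Tuba1b with 31.1, Tuba1c with 13.1, Tuba4a with 1.39 and Tuba8 with 0.0567. Neighbours in this order did not overlap in their ranges over the 9 embryos, apart from Tubb3 and Tubb5, where Tubb3 was the higher in 6 of 9 embryos, and Tuba1c, whose range overlapped those of Tuba1b and Tuba4a. Tuba1a made up 36.4% ± 1.55 (SD, n = 9) of the summed level of the 10 genes, Tubb2b 21.5%, Tubb3 17.1% and Tubb5 16.9%. The 5 alpha-tubulins together made up 37.0% ± 1.36. The 10 genes took 1.46% to 1.73% of all counts on genes. These shares depend on the length used: divided by unshared windows instead of exon length, Tuba1a made up 61.6% and Tuba1b (0.677%) stood above Tubb4a (0.599%), and without division by length Tubb5 (25.9%) stood above Tubb2b (22.7%).

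**Figure D2:**
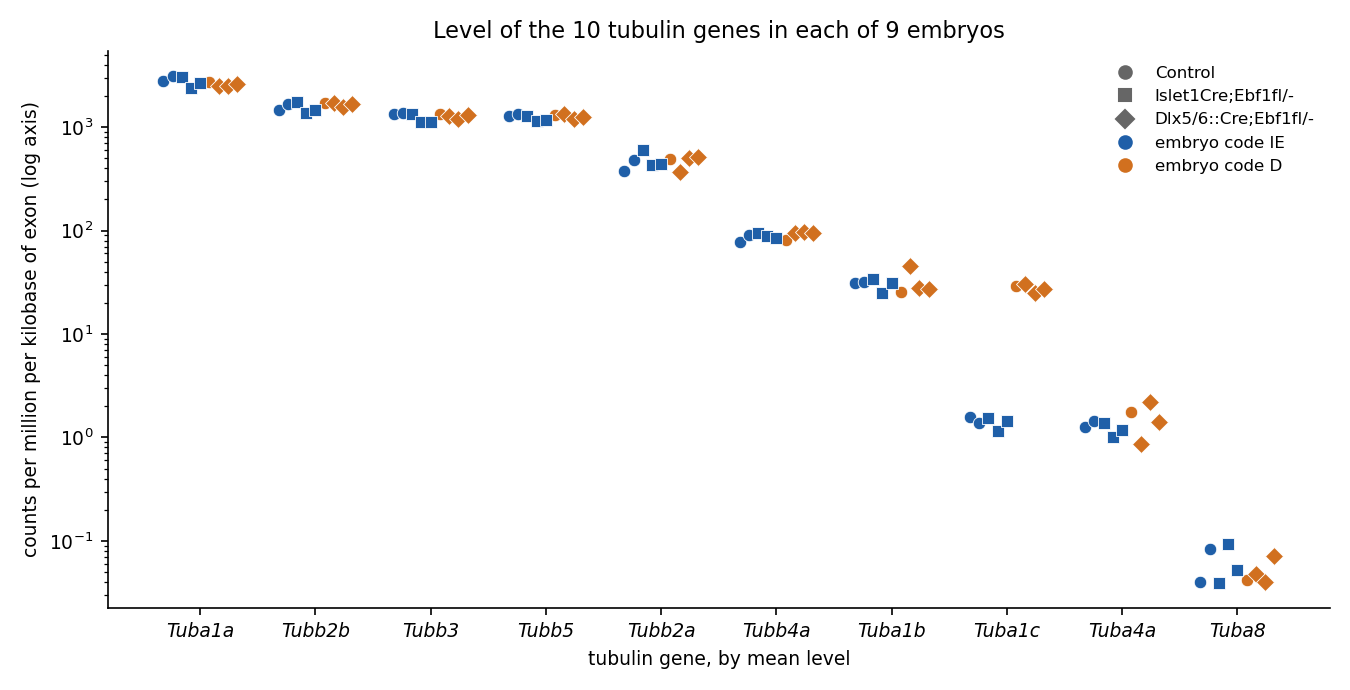
Level in CPM per kilobase of exon (vertical log axis) of the 10 tubulin genes, ordered by mean (horizontal axis), with 1 point per embryo, marker shape for genotype and colour for code prefix. Each gene forms 1 group of 9 embryos except Tuba1c, which forms 2 groups that follow the code, at 1.16 to 1.59 (IE) and 24.8 to 30.5 (D).

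Tuba1c, an alpha-tubulin gene of broad tissue expression, was about 19 times higher in embryos coded D than in those coded IE, both among the controls and over all 9 embryos. Control embryos 1 and 2, coded IE, had 3.64 and 3.19 CPM, and control 3, coded D, had 65.8 CPM. The Islet1Cre;Ebf1fl/- embryos, all coded IE, had 3.50, 2.65 and 3.33 CPM. The Dlx5/6::Cre;Ebf1fl/- embryos, all coded D, had 69.7, 56.7 and 61.6 CPM. The lowest embryo coded D was 15.6 times the highest embryo coded IE, and embryos of the same code differed by at most 1.37 times (IE) and 1.23 times (D). Behind these levels stood 56 to 121 counts per library in embryos coded IE and 1877 to 2284 in embryos coded D.

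The mean was 63.5 ± 5.60 CPM in the 4 embryos coded D and 3.26 ± 0.381 CPM in the 5 coded IE (SD), a ratio of 19.4 and a log2 difference of 4.26. Codes without overlap were found for 245 of the 16368 genes tested (1.5%), of which 122 (0.745%) were higher in embryos coded D, as Tuba1c was, and 123 (0.751%) lower. By the absolute size of its log2 difference, Tuba1c ranked 4 among all genes tested. Control 3 had 19.3 times the mean of controls 1 and 2. Without control 3 or Islet1Cre;Ebf1fl/- embryo 3, the libraries with both Xist and Y-linked reads, the difference, IE minus D, was -4.24 and -4.27. Without control 3 all embryos coded D were Dlx5/6::Cre;Ebf1fl/-, so the first value does not separate code from genotype. In embryos coded D, Tuba1c stood near Tuba1b per kilobase of exon, with 27.7 ± 2.45 against 31.4 ± 9.35 CPM per kilobase, whereas in embryos coded IE it was at 1.43 ± 0.167 against 30.7 ± 3.40. This comparison depends on the length used: in embryos coded D, the mean of Tuba1b was 1.13 times that of Tuba1c by exon length and 1.88 times by unshared windows. Tuba1c and Tuba4a stood close together in embryos coded IE, where Tuba4a was at 1.26 ± 0.174 CPM per kilobase.

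**Figure D3:**
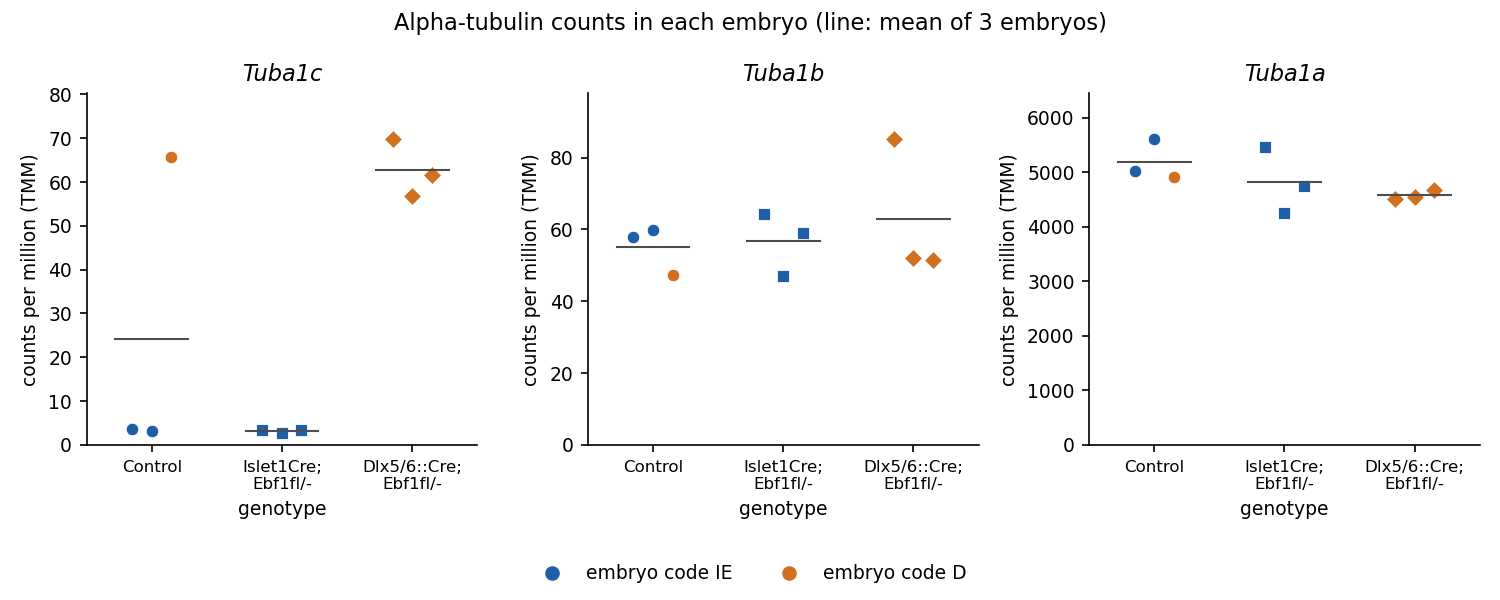
CPM (vertical axis, from 0, TMM-scaled) of Tuba1c, Tuba1b and Tuba1a in each of 9 embryos by genotype (horizontal axis), coloured by code prefix, with a line at the mean of 3 embryos. For Tuba1c the control coded D (65.8) stands with the Dlx5/6::Cre;Ebf1fl/- embryos (56.7 to 69.7) and not with the controls coded IE (3.19 and 3.64), whereas Tuba1b and Tuba1a overlap between codes.

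The levels of mutants and controls of the same code, which belong to the pattern that Tuba1c was chosen for, are given without a test. Within code IE, the mean of the 3 Islet1Cre;Ebf1fl/- embryos was 0.926 times that of the 2 controls, and in an edgeR fit on these 5 embryos the log2 fold change was -0.12 ± 0.22 (SE). Within code D there was 1 control, and the mean of the 3 Dlx5/6::Cre;Ebf1fl/- embryos was 0.952 times its value, with no test. When all 9 embryos were compared by genotype alone, the log2 fold change of Tuba1c was -2.95 (SE 1.00) in Islet1Cre;Ebf1fl/- against control, 1.38 (SE 0.86) in Dlx5/6::Cre;Ebf1fl/- against control and 4.33 between the mutants. With the code prefix as a covariate, a term that rests on control 3 against controls 1 and 2, the same values were -0.13, -0.07 and 0.06. These values follow from the pattern that Tuba1c was chosen for, so they do not test an effect of genotype. Without control 3 the values by genotype alone were -0.13 and 4.19 in the comparisons with controls.

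Of the 30 other tested genes whose start lies within 500 kb of that of Tuba1c, 0 had codes without overlap, beside 1.5% of all genes tested. Their log2 differences, D minus IE, ran from -0.45 (B130046B21Rik) to 0.56 (Dhh), with a median of -0.01. Tuba1a and Tuba1b are among them.

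**Figure D4:**
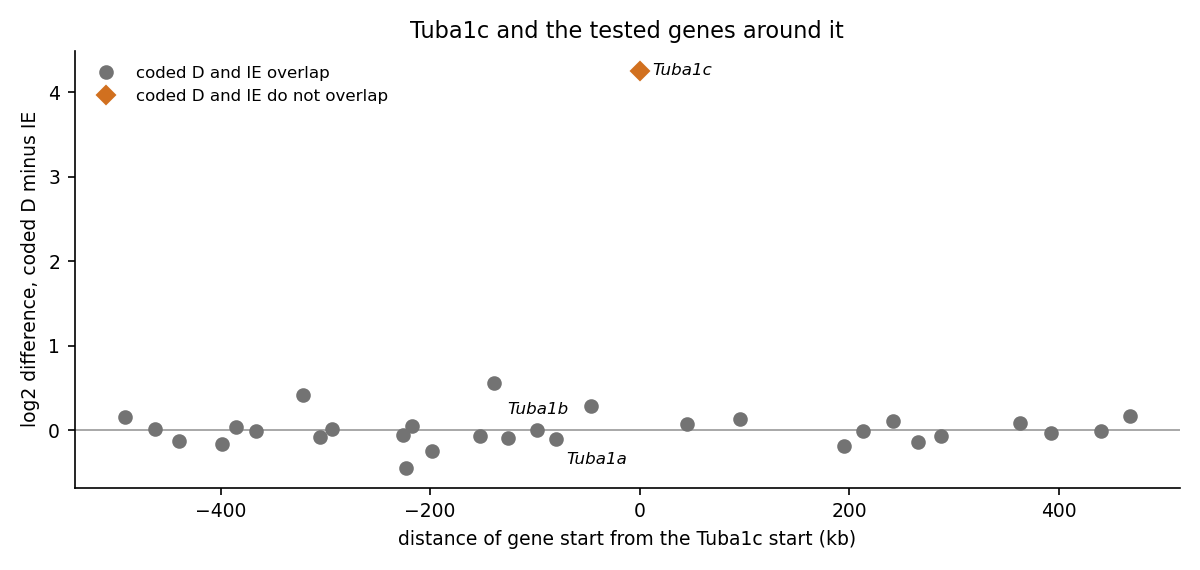
Log2 difference between embryos coded D and IE (vertical axis) against the distance of each gene start from that of Tuba1c in kilobases (horizontal axis) for the genes tested within 500 kb. Tuba1c, at 4.26, is the one gene without overlap between codes (orange), and the other 30 genes (grey) lie between -0.45 and 0.56.

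The gene whose log2 CPM was most like that of Tuba1c over the 9 embryos was Gm14150, a processed pseudogene on chromosome 2 (Pearson r = 0.975). Its counts were 131 in control 3 and 223, 152 and 167 in the Dlx5/6::Cre;Ebf1fl/- embryos, against 39 and 35 in controls 1 and 2 and 20, 45 and 19 in the Islet1Cre;Ebf1fl/- embryos. The mean was 5.32 CPM in embryos coded D and 1.04 CPM in those coded IE, a log2 difference of 2.24. Of its 75-base windows, 51.9% were shared with Tuba1b, 39.1% with Tuba1c and 24.7% with Tuba1a, so its counts are uncertain. The pseudogenes Gm3756, Gm6682 and Gm5620, which also share windows with the Tuba1 genes, had at most 42 counts in a library and overlapped between codes. No row of the count tables was matched to the pseudogenes or copies AC157548.1, Gm17383, Gm49450 and Gm3226, so they were not analysed here.

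The other 7 of the 8 genes most like Tuba1c had r between 0.912 and 0.957 and far smaller differences. Ntsr1, which encodes a receptor for neurotensin, was at 9.86 to 11.8 CPM in embryos coded D and 7.26 to 7.60 in those coded IE. Rplp0, a protein of the large ribosomal subunit, had a log2 difference of 0.32, Arl5a of 0.36, Zfp110 of 0.19, Mxd1 of 0.15, Mtrex of 0.13 and Ccdc127 of 0.10. The genes most unlike Tuba1c were Gm9855 (r = -0.994), Gm15920 (r = -0.974) and AC149090.1 (r = -0.955), with log2 differences of -6.53, -5.37 and -1.57. Gm9855 and Gm15920 are processed pseudogenes that share 68.1% of their windows with Tdg and 69.5% with Ndufa12. These correlations describe 9 libraries that share 2 codes, and no p was computed for them. Beyond a log2 difference of 2 there were 5 genes without overlap between codes: Tuba1c, Gm14150, Gm9855, Gm15920 and Gm11814, the last of which was singled out after its values were seen.

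The remaining alpha-tubulins did not follow the code. Tuba1a, the main alpha-tubulin of young neurons, was at 5026, 5604 and 4912 CPM in controls 1 to 3, at 5470.0, 4256 and 4750.2 CPM in the Islet1Cre;Ebf1fl/- embryos and at 4512, 4541 and 4682 CPM in the Dlx5/6::Cre;Ebf1fl/- embryos. The Dlx5/6::Cre;Ebf1fl/- embryos all lay below the controls, and the Islet1Cre;Ebf1fl/- embryos overlapped both groups. The log2 fold change against control was -0.10 ± 0.11 (SE) for Islet1Cre;Ebf1fl/- and -0.18 ± 0.11 for Dlx5/6::Cre;Ebf1fl/-, with edgeR adjusted p of 0.995 and 0.446.

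Tuba1b, which is expressed in most cells and also in dividing ones, was at 57.9, 59.8 and 47.2 CPM in controls, at 64.4, 47.1 and 58.9 CPM in Islet1Cre;Ebf1fl/- embryos and at 85.1, 52.0 and 51.6 CPM in Dlx5/6::Cre;Ebf1fl/- embryos. The highest value was that of Dlx5/6::Cre;Ebf1fl/- embryo 1, the library with the highest level of progenitor markers, and the others overlapped. Of the log2 fold changes, 0.04 ± 0.19 (SE) for Islet1Cre;Ebf1fl/- and 0.19 ± 0.19 for Dlx5/6::Cre;Ebf1fl/- (edgeR adjusted p = 0.999 and 0.670), the second was -0.09 without that embryo. The part of progenitor content in this value was not tested. By code, its mean was 59.0 ± 17.53 CPM in embryos coded D and 57.6 ± 6.38 in those coded IE.

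Tuba4a encodes an alpha-tubulin without the C-terminal tyrosine that most others carry. It was low, with 4.66, 5.33 and 6.54 CPM in controls, 5.16, 3.73 and 4.34 CPM in Islet1Cre;Ebf1fl/- embryos and 3.23, 8.10 and 5.26 CPM in Dlx5/6::Cre;Ebf1fl/- embryos. The last group held both its lowest and its highest value. Its 95% intervals were wide, from -0.99 to 0.34 for Islet1Cre;Ebf1fl/- and from -0.64 to 0.66 for Dlx5/6::Cre;Ebf1fl/-, and do not exclude changes of that size. Tuba8, known from testis and muscle, had 2 to 9 counts per library and 0.0898 to 0.211 CPM, and was not tested.

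Among the beta-tubulins, Tubb4a, known from myelin-forming cells and mature neurons, came closest to a difference. It was at 171.4, 202.3 and 179.8 CPM in controls, at 209.4, 195.1 and 188.4 CPM in Islet1Cre;Ebf1fl/- embryos and at 209.0, 215.1 and 211.8 CPM in Dlx5/6::Cre;Ebf1fl/- embryos. The Dlx5/6::Cre;Ebf1fl/- embryos all lay above the controls, and the other mutants overlapped them. The log2 fold change in Dlx5/6::Cre;Ebf1fl/- was 0.20 ± 0.08 (SE, 95% interval 0.03 to 0.38), with an edgeR adjusted p of 0.253, and in Islet1Cre;Ebf1fl/- it was 0.10 ± 0.08.

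Tubb3, the neuronal beta-tubulin of class III, was at 2484, 2552 and 2484 CPM in controls, at 2489, 2101 and 2112 CPM in Islet1Cre;Ebf1fl/- embryos and at 2383, 2239 and 2428 CPM in Dlx5/6::Cre;Ebf1fl/- embryos. Islet1Cre;Ebf1fl/- embryo 1 lay among the controls, and every Dlx5/6::Cre;Ebf1fl/- embryo lay below them. The log2 fold changes were -0.17 ± 0.09 and -0.09 ± 0.09 (SE; edgeR adjusted p = 0.778 and 0.660).

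Tubb5, the widely expressed beta-tubulin of class I, was at 4295, 4477 and 4305 CPM in controls, at 4239, 3776 and 3909 CPM in Islet1Cre;Ebf1fl/- embryos and at 4406, 3944 and 4146 CPM in Dlx5/6::Cre;Ebf1fl/- embryos. All Islet1Cre;Ebf1fl/- embryos were below the controls, with a log2 fold change of -0.13 ± 0.09 (SE, edgeR adjusted p = 0.881).

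The class II pair showed no separation of groups. Tubb2b, which is needed for the migration of young neurons, was at 3319, 3821 and 3900.2 CPM in controls, at 4025, 3164 and 3364 CPM in Islet1Cre;Ebf1fl/- embryos and at 3919, 3562 and 3788 CPM in Dlx5/6::Cre;Ebf1fl/- embryos. Its close copy Tubb2a was at 609.7, 773.8 and 787.0 CPM, at 975.3, 688.8 and 711.3 CPM, and at 592.5, 814.2 and 826.1 CPM in the same order. Both genes were highest in Islet1Cre;Ebf1fl/- embryo 1. Their log2 fold changes against control were between -0.07 and 0.13 in the 2 mutants.

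None of the 8 tested tubulins other than Tuba1c passed the threshold in a comparison of genotypes. In Islet1Cre;Ebf1fl/- against control, edgeR called 0 of the 8 at an adjusted p of 0.05, beside 159 of all 16368 genes (0.971%). An unadjusted edgeR p below 0.05 was found for 0 of the 8 and for 1298 of all genes. DESeq2 called 0 of the 8 and 395 of all genes. In Dlx5/6::Cre;Ebf1fl/- against control edgeR called 0 of the 8, beside 392 of all genes (2.39%). An unadjusted edgeR p below 0.05 was found for 1 of the 8 (Tubb4a) and for 2543 of all genes. DESeq2 called 0 of the 8 and 860 of all genes. Between the mutants edgeR called 0 of the 8 and 0 of all genes (0.0%), 0 of the 8 and 844 of all genes had an unadjusted p below 0.05, and DESeq2 called 0 of the 8 and 18 of all genes. Groups without overlap were found for 1 of the 8 in Islet1Cre;Ebf1fl/- against control (Tubb5; 15.2% of all genes), for 3 in Dlx5/6::Cre;Ebf1fl/- against control (Tuba1a, Tubb3 and Tubb4a; 21.0%) and for 0 between the mutants (10.4%). The median log2 fold change of the 8 was -0.08, 0.02 and 0.08 in these comparisons, and that of all genes was -0.0016, 0.01 and 0.01. The comparisons with controls share the same 3 controls. A p above the threshold does not show that levels were equal. The intervals of Tuba1a, Tubb2b, Tubb3, Tubb4a and Tubb5 lay within -0.41 to 0.38 in all 3 comparisons.

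**Figure D5:**
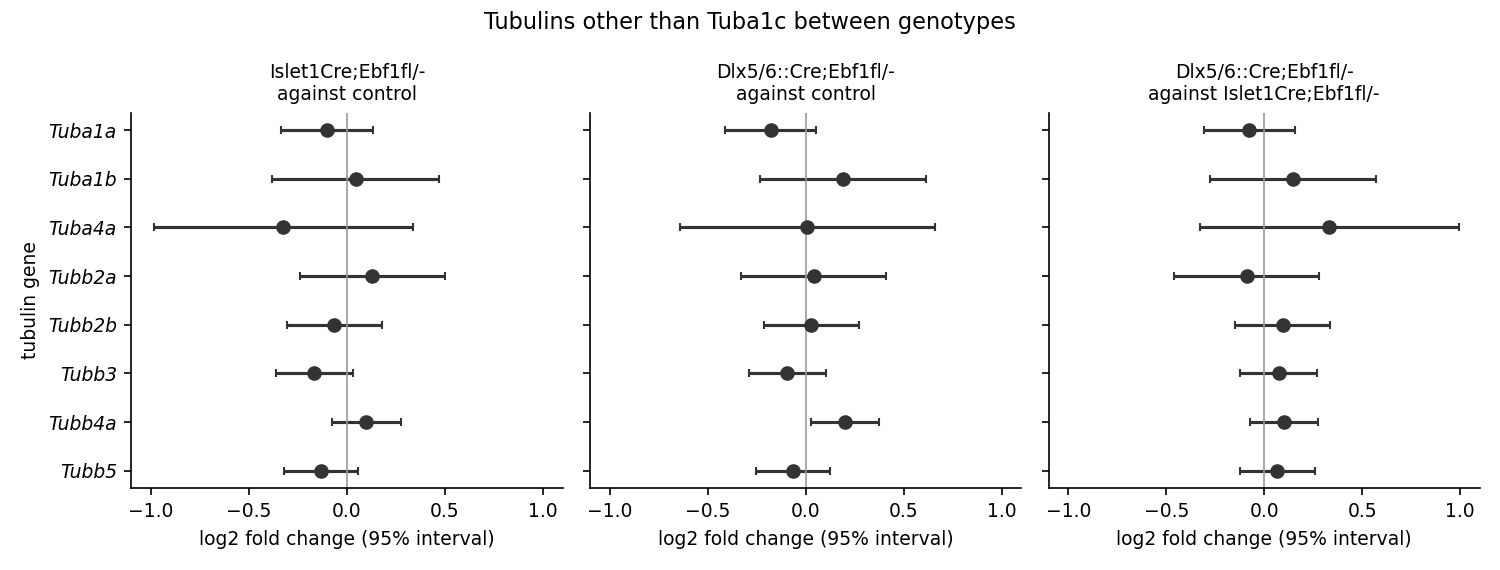
Log2 fold change (horizontal axis, point) with its 95% interval (bar) for the 8 tested tubulins other than Tuba1c (vertical axis) in the 3 comparisons of genotypes, 3 embryos per group. All intervals hold 0 except that of Tubb4a in Dlx5/6::Cre;Ebf1fl/- against control (0.03 to 0.38, adjusted p = 0.253).

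Other genes of the microtubule system were looked at through 7 lists: the other tubulins, tubulin folding factors, the gamma-tubulin complex, structural microtubule-associated proteins, tubulin-modifying enzymes, severing and plus-end proteins, and motors. Of their 111 genes, 107 were tested. In Islet1Cre;Ebf1fl/- against control edgeR called 0, with 4 at an unadjusted p below 0.05, and DESeq2 called 1, Dync1i1. In Dlx5/6::Cre;Ebf1fl/- against control 1 was called, also Dync1i1, with 11 at an unadjusted p below 0.05. Between the mutants 0 were called by edgeR, with 3 at an unadjusted p below 0.05. The shares called were at or below those of all genes given above. So were the shares at an unadjusted p below 0.05, beside 1298, 2543 and 844 of all 16368 genes. The median log2 fold change of the 107 genes was 0.02, 0.02 and 0.01.

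Dync1i1 encodes an intermediate chain of cytoplasmic dynein, the motor that moves cargo toward the minus end of microtubules. It was at 12.5, 19.6 and 16.7 CPM in controls, at 36.4, 32.8 and 27.8 CPM in Islet1Cre;Ebf1fl/- embryos and at 25.9, 45.4 and 46.2 CPM in Dlx5/6::Cre;Ebf1fl/- embryos. All 6 mutants lay above all controls, and the mutants overlapped each other. It rose in Dlx5/6::Cre;Ebf1fl/-, with a log2 fold change of 1.27 ± 0.23 (SE, edgeR adjusted p = 0.0169), and had a log2 fold change of 0.99 ± 0.23 in Islet1Cre;Ebf1fl/- (adjusted p = 0.0852). Over 16 alternatives the first value lay between 1.11 and 1.49 and passed the threshold in 10, with adjusted p up to 0.318. Within code IE, where the fit holds 3 mutants and 2 controls, the second was 1.02 ± 0.19 (edgeR adjusted p = 0.0382). That fit called 169 of 16388 genes (1.03%). With the code prefix as a covariate, Dync1i1 was called in neither comparison with controls. Of all genes, 61 and 32 were called there, against 159 and 392 without the covariate.

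The other tubulins that passed the filter were Tubb4b, Tubb6, the gamma-tubulins Tubg1 and Tubg2 of the nucleating complex, and the centriolar tubulins Tubd1 and Tube1. None of these 6 was called by edgeR in any comparison, and their log2 fold changes against control ran from -0.11 (Tubg2) to 0.36 (Tube1) in Islet1Cre;Ebf1fl/- and from -0.19 (Tubg2) to 0.21 (Tubb4b) in Dlx5/6::Cre;Ebf1fl/-. At an unadjusted p below 0.05 stood Tube1 in the first comparison and Tubb4b between the mutants. Tubb4b was at 92.8, 116.2, 91.2 and 88.9 CPM in the 4 embryos coded D, control 3 first, and at 75.8 to 86.2 CPM in the 5 coded IE. Its codes did not overlap, as for 1.5% of all genes tested, and code and genotype cannot be told apart in the difference between the mutants. Of its windows, 29.9% were shared, 24.7% with Tubb4b-ps1, so its counts are uncertain. The other 5 of these tubulins overlapped between codes. As with Tuba1b, the highest levels of Tubb4b (116.2 CPM) and Tubb6 (10.6 CPM) were those of Dlx5/6::Cre;Ebf1fl/- embryo 1.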

How the data were processed

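Striatal RNA of 9 embryos, 3 per genotype, was sequenced from TruSeq Stranded mRNA libraries made from 400 ng of total RNA. The deposited values are raw counts per gene and embryo: the authors removed short and low-quality reads, aligned the rest with STAR 2.4.0k to the mouse genome of Ensembl 81 (mm10 in the submitters' processing notes), removed alignments of reads that matched more than once and counted with HTSeq 0.5.3. The strand setting of the counting is not given in the sources used here. The notes also list SAMtools, HOMER and DESeq 1.8.3.

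Counts were fitted in R 4.3.3 with edgeR 4.0.16 (filterByExpr with a minimum count of 10, TMM, quasi-likelihood test, genotype as the term, all 9 embryos) and p-values were adjusted by Benjamini-Hochberg over all genes tested, with a threshold of 0.05. DESeq2 1.42.0, other filters, scalings and sample sets, the code prefix as a covariate, a replicate block and leaving out each embryo were alternatives. Fits on the 5 embryos coded IE and lengths from unshared windows were chosen after seeing the data. The log2 CPM used a prior count of 2. Windows, lengths and positions come from GENCODE M21 (GRCm38), a later annotation than that of the counts. Tested on simulated data for Islet1Cre;Ebf1fl/- against control, over 15851 genes, the fit recovered 98% of genes changed by a log2 fold of 1. It recovered 100% of those changed by 2, and 5.26% of its calls were false. The simulation gave every gene the same relative spread between embryos and changed well-counted genes only. Its rates therefore do not give the power of the fit on the real embryos or for smaller changes. Replicates of each group differed by more than sampling noise (chi-square per degree of freedom 10.8 to 50.5). The members, lists and tests were chosen with earlier results of these data known. The genes named were the 10 members, microtubule genes called against control, other tubulins past the filter, the 8 genes most and the 3 least correlated with Tuba1c, and neighbours of Tuba1c whose codes do not overlap. B130046B21Rik and Dhh were named as the ends of a range. Stretches of tubulin sequence are not reported here.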

Additional observations from a re-analysis of the deposited data

Results flagged for a closer look

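The log2 level of Tuba1c was 4.29 higher in the mean of the 3 Dlx5/6::Cre;Ebf1fl/- embryos than in that of the 3 Islet1Cre;Ebf1fl/- embryos. It stands out because the mutants lay on opposite sides of the mean of the 3 controls. All 3 Dlx5/6::Cre;Ebf1fl/- embryos lay above it and all 3 Islet1Cre;Ebf1fl/- embryos below it. That mean lay between controls 1 and 2 (3.64 and 3.19 CPM, coded IE) and control 3 (65.8 CPM, coded D). Each mutant group overlapped the controls. The difference was not tested, since Tuba1c was chosen for its pattern by code, and between these groups genotype and code cannot be told apart. Among the controls alone, the difference between codes was of like size, -4.25 for IE minus D.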

How the results depend on the processing

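The log2 difference of Tuba1c between codes, IE minus D, was -4.26 and lay between -4.31 and -4.19 when each embryo was left out. Tuba1c carries no test. The other 8 tested tubulins were called in none of 392 fitted values (smallest edgeR adjusted p = 0.164, Tubb4a in Dlx5/6::Cre;Ebf1fl/- without control 2). Of their log2 fold changes, 167 kept their direction and 9 turned under other settings, and 198 kept it and 18 turned when an embryo was left out. With the code prefix as a covariate, those against control were -0.0548 for Tuba1b in Islet1Cre;Ebf1fl/- and -0.24 for Tuba4a, -0.0804 for Tubb2a and -0.0542 for Tubb2b in Dlx5/6::Cre;Ebf1fl/-, and those between the mutants were 0.0381 for Tuba1a, -0.0554 for Tuba4a and -0.0329 for Tubb2b. On the 5 embryos coded IE Tuba1b was at -0.0505. When each embryo was left out, Islet1Cre;Ebf1fl/- against control gave -0.0578 to 0.17 for Tuba1b, -0.0478 to 0.22 for Tubb2a and -0.17 to 0.0059 for Tubb2b. Dlx5/6::Cre;Ebf1fl/- against control gave -0.0865 to 0.31 for Tuba1b, -0.37 to 0.28 for Tuba4a, -0.0688 to 0.18 for Tubb2a and -0.0402 to 0.0716 for Tubb2b. Between the mutants the ranges were -0.16 to 0.024 for Tuba1a, -0.13 to 0.27 for Tuba1b, -0.0457 to 0.60 for Tuba4a and -0.18 to 0.0887 for Tubb2a. The cause was not tested.

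Deviations of same-numbered embryos correlated from -0.228 to 0.178, and those of differently numbered embryos from -0.177 to 0.151. These values showed no pairing by replicate number, but weak correlations cannot exclude it. With a replicate block Tuba4a in Dlx5/6::Cre;Ebf1fl/- was at -0.0259, Tuba1c at -2.0 and 2.42 against control, and 143, 363 and 0 genes were called in the 3 comparisons. Microtubule genes called in Islet1Cre;Ebf1fl/- against control were 0, and 1 with DESeq2, without a filter, on the 6 samples compared, on the 5 embryos coded IE or without Dlx5/6::Cre;Ebf1fl/- embryo 1 (0 to 1 over embryos left out). In Dlx5/6::Cre;Ebf1fl/- the count was 1, and 0 on the 6 samples compared or with the prefix as a covariate. It was 0 without control 1, control 3 or Dlx5/6::Cre;Ebf1fl/- embryo 2 or 3, and 2 without Dlx5/6::Cre;Ebf1fl/- embryo 1. The share of Tuba1a was 34.5% by the longest coding transcript, 30.2% without length and 61.6% by unshared windows. Over all genes, calls against control were 159 and 392, and 395 and 860 with DESeq2, 311 and 708 without a filter, 61 and 32 with the prefix and 259 and 181 on 6 samples, and they ranged from 15 to 397 and from 143 to 613 when an embryo was left out. Between the mutants they were 0, and 18, 13, 1 and 2 in the same order, and 0 to 4.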
